A study of Mus musculus with 4 samples.

Results

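The mitochondrially encoded genes are the 37 rows of the count table whose Ensembl identifiers carry a symbol starting with mt- in GENCODE M21 (GRCm38), out of 55471 rows in all. They comprise 13 mRNA genes, 2 rRNA genes and 22 tRNA genes, and each is annotated as 1 exon on the mitochondrial chromosome. They were measured in 4 RNA-seq libraries of CD11b-positive cells separated from mouse brain with magnetic beads. CD11b is an integrin carried by microglia and other myeloid cells. All 4 libraries belong to 1 group: mice aged 10 to 13 weeks that received PLX5622 for 7 days and then went 10 days without it, 17 days in all. PLX5622 blocks the CSF1 receptor, a kinase that microglia need to survive, and the submitters named the cells repopulated microglia. The labels give no strain, sex or genotype, and do not tie the libraries to animals. P-values thus reflect the scatter of these samples alone, some of which may be technical. With 1 group, no effect of the drug can be estimated, and the question that the design allows is at what level each gene was counted and how far the libraries differed.

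The mitochondrial chromosome of mammals is a small circle present in many copies per cell. It is transcribed as long RNAs from both strands, and the tRNAs that stand between the other genes are cut out to release the mRNAs and rRNAs. The mRNAs encode subunits of complexes I, III, IV and V of oxidative phosphorylation, and the rRNAs and tRNAs serve the ribosomes of the organelle. All other subunits, and the enzymes that copy, transcribe, cut and translate mitochondrial RNA, are encoded in the nucleus. Library preparation began with 300 ng of total RNA and poly(A) selection, so the levels below are those of RNA that passed this selection.

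Of the 13 mRNA genes, 6 were at 0 counts in every library. A stretch of mt-Co2, which is among these 6, is shown because it has copies elsewhere in the annotation that differ in their counts. Windows of 50 bases of every member were looked up on both strands in the GENCODE M21 transcripts of all genes off the mitochondrial chromosome. All 635 windows of mt-Co2, which encodes subunit 2 of cytochrome c oxidase, also occurred in another annotated gene. Bases 454 to 543 of mt-Co2 are given with the matching bases of 2 pseudogenes, Gm28661 on chromosome 1 and Gm13341 on chromosome 2, all 5′ to 3′, with capitals at mismatches to mt-Co2.
mt-Co2: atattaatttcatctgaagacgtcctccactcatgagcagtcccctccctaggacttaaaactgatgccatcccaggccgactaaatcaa
Gm28661: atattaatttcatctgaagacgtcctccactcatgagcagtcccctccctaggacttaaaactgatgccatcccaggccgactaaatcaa
Gm13341: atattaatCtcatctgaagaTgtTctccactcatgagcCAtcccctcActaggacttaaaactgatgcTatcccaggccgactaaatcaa
Gm28661 had 0 mismatches in these 90 bases and Gm13341 had 7. The stretch was chosen for holding the most mismatches of Gm13341 in any 90 aligned bases, so it is denser in them than the whole gene, which has 16. From base 1 of mt-Co2, the 7 substitutions in Gm13341 are T462C, C474T, C477T, A492C, G493A, C501A and C522T.

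The 3′ ends of mt-Co3, mt-Nd4 and mt-Cytb are shown because poly(A) selection acts on these ends. In the annotation each of the 3 genes stops at a lone T, here in capitals, which is the first base of a stop codon that the added poly(A) tail completes. The last 30 bases of each, 5′ to 3′, are as follows.
mt-Co3: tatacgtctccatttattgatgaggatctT
mt-Nd4: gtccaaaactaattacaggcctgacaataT
mt-Cytb: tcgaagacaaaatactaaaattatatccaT
Of these, mt-Nd4 and mt-Cytb had counts in every library and mt-Co3 had none.

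Libraries 1 to 4, numbered as in the labels, held between 23036202 and 24487418 counts, so that 3 counts correspond to 0.123, 0.130, 0.127 and 0.123 CPM, a gene's share of its library scaled to 1000000. This floor covers counting error alone, because without molecular identifiers PCR copies of a molecule are counted again. Pairs of libraries differed by 17.3 to 84.1 times the sampling noise (chi-square per degree of freedom over genes), so no pair agreed within counting noise. All 10 microglial markers had at least 1 CPM in each library, here called detected. Choroid plexus and ependymal markers (9 of 9 detected, none at 0) summed to 16150, 16150, 3223 and 23080 CPM in libraries 1 to 4, with Ttr highest among them. In bulk samples, fewer cells of a type and less RNA per cell cannot be told apart.

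The members together held 1.21%, 1.49%, 1.42% and 1.66% of each library, in the order of the labels, a mean of 1.44% ± 0.188 (SD, n = 4). Library 1 had the lowest share and library 4 the highest. The 13 mRNA genes held 84.6%, 92.0%, 92.2% and 92.5% of the mitochondrial counts, or 90.3% ± 3.798 (SD, n = 4). The 2 rRNA genes held 15.3%, 7.95%, 7.70% and 7.49%, and library 1 was above the other libraries by more than the spread among them. The 22 tRNA genes held 0.1004%, 0.0746%, 0.0619% and 0.0474%. Without library 1 the mRNA share was 92.2% ± 0.242 (SD, n = 3). These shares describe RNA after poly(A) selection and not the composition of the organelle's RNA. They are also shares of the counts in the table, where 6 of the 13 mRNA genes had 0 in every library. The mRNA counts thus rest on 7 genes. How reads that match several places were treated is not given, so reads left uncounted would lower these shares by an unknown amount.

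Of the 37 members, 12 reached 1 CPM in every library and 15 had 0 counts in every library. The 12 are 7 mRNA genes, both rRNA genes and 3 tRNA genes. The 15 are 6 mRNA genes and 9 tRNA genes. The plot of members in chromosome order shows that the mRNA genes without counts stand together.

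**Figure D1:**
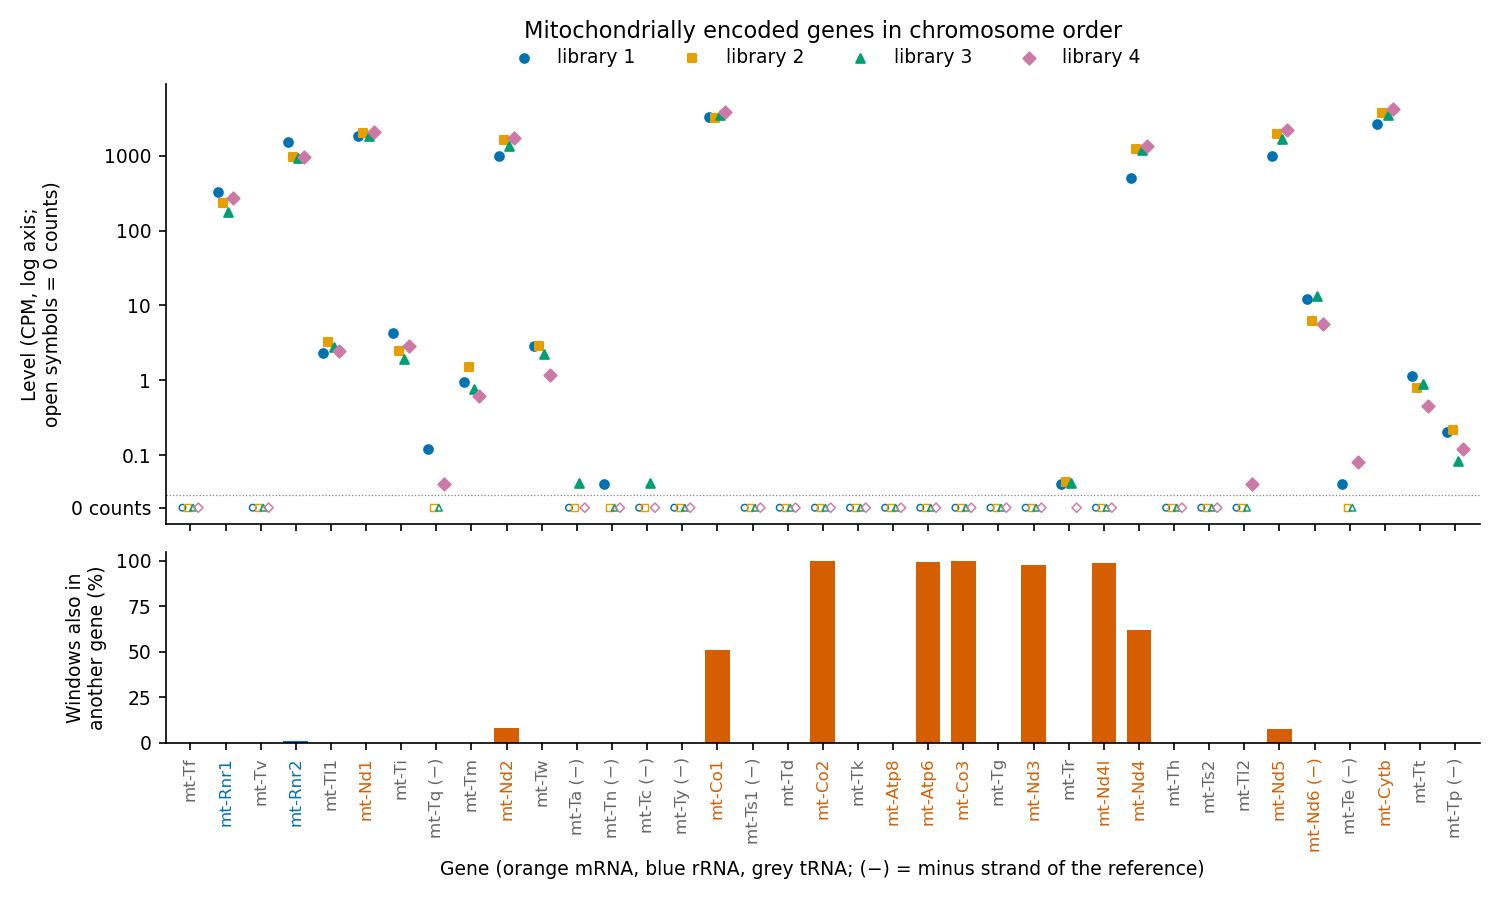
CPM of all 37 mitochondrially encoded genes in chromosome order (upper panel, log axis, 1 symbol per library, open symbols for 0 counts), with the share of each gene's 50-base windows that also occur in a transcript of a gene off the mitochondrial chromosome (lower panel, %). The 6 mRNA genes without counts lie between mt-Co1 and mt-Nd4, and 5 of them have 97.99% or more of their windows in another gene, while mt-Atp8 has none.

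Among complex I subunits, which pass electrons from NADH to ubiquinone, mt-Nd1 (ENSMUSG00000064341, chrM:2751-3707) was counted 44179, 45541, 43358 and 51204 times in libraries 1 to 4, which is 1810, 1977, 1838 and 2091 CPM. Its mean was 1929 ± 130 CPM (SD, n = 4), and no library stood apart. The level of mt-Nd2 (ENSMUSG00000064345, chrM:3914-4951) was 985, 1604, 1343 and 1698 CPM, and library 1 lay below the other 3. The level of mt-Nd5 (ENSMUSG00000064367, chrM:11742-13565) was 1001, 1969, 1667 and 2182 CPM, again with library 1 below the others.

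The member with the largest residual deviance in the test of spread below was mt-Nd4 (ENSMUSG00000064363, chrM:10167-11544, plus strand), also a complex I subunit. It held 12179, 28360, 27871 and 33165 counts, or 499, 1231, 1182 and 1354 CPM. Libraries 2 to 4 lay within a narrow range, and library 1 was well below it. The mean was 1067 ± 385 CPM (SD, n = 4), and 1256 CPM without library 1.

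The last complex I subunit with counts was mt-Nd6 (ENSMUSG00000064368, chrM:13552-14070), the only mRNA gene on the minus strand of the reference. It had 296, 144, 316 and 137 counts, or 12.1, 6.25, 13.4 and 5.60 CPM. Libraries 1 and 3 were high and libraries 2 and 4 low, with no value between. Its mean was 9.34 ± 3.99 CPM (SD, n = 4). The 3′ end of mt-Nd6 overlaps that of mt-Nd5, which lies on the opposite strand, by 14 bases. Reads per library on mt-Nd5 were 82.5, 315, 124 and 390 times those on mt-Nd6.

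Outside complex I, mt-Cytb (ENSMUSG00000064370, chrM:14145-15288), the cytochrome b subunit of complex III, had the highest mean CPM of the members. Its level was 2679, 3727, 3527 and 4182 CPM, a mean of 3529 ± 629 (SD, n = 4), and library 1 was lowest. The level of mt-Co1 (ENSMUSG00000064351, chrM:5328-6872), the catalytic subunit of complex IV, was 3236, 3186, 3514 and 3848 CPM, a mean of 3446 ± 304 (SD, n = 4). Libraries 1 and 2 were nearly equal and library 4 was highest. By mean CPM, mt-Cytb had rank 18 and mt-Co1 rank 20 among all rows of the table.

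The 12S rRNA gene mt-Rnr1 (ENSMUSG00000064337, chrM:70-1024) encodes the RNA of the small ribosomal subunit. It had 329, 235, 175 and 275 CPM, a mean of 253 ± 64.9 (SD, n = 4), with library 1 highest and library 3 lowest. The 16S rRNA gene mt-Rnr2 (ENSMUSG00000064339, chrM:1094-2675), for the large subunit, had 1514, 949, 917 and 969 CPM, a mean of 1087 ± 285 (SD, n = 4). Libraries 2 to 4 lay close together, and library 1 was above all of them. In the same library both rRNA genes were highest while mt-Nd1, mt-Nd2, mt-Nd4, mt-Nd5 and mt-Cytb were lowest.

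**Figure D2:**
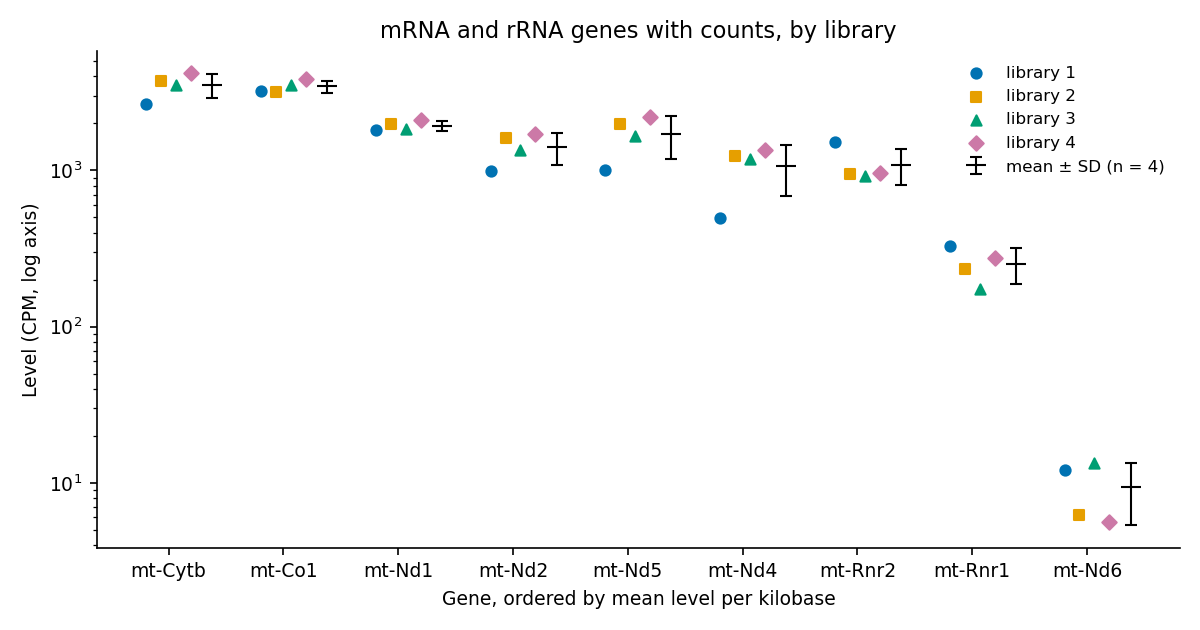
CPM (log axis) of the 7 mRNA and 2 rRNA genes that had counts, in each of the 4 libraries, with the mean ± SD (n = 4). For mt-Nd4, libraries 2 to 4 sit between 1182 and 1354 CPM and library 1 at 499, while for mt-Rnr2 library 1 is highest at 1514.

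Per kilobase of annotated exon, the order of mean levels ran from mt-Cytb (3085 ± 550 CPM per kilobase, SD, n = 4) through mt-Co1 (2231 ± 197), mt-Nd1 (2016 ± 136), mt-Nd2 (1356 ± 308), mt-Nd5 (935 ± 282), mt-Nd4 (774 ± 280), mt-Rnr2 (687 ± 180) and mt-Rnr1 (265 ± 68.0) to mt-Nd6 (18.0 ± 7.69). Of the 8 pairs of neighbours in this order, 6 stood in the same order in all 4 libraries. The pairs mt-Co1 and mt-Nd1, and mt-Nd4 and mt-Rnr2, did so in 3 libraries. An exact sign-flip permutation over 4 libraries cannot give a two-sided p below 2 of 16, so the order was not tested. Where the length was taken as the 50-base windows not found in another gene, mt-Co1 was at 4714 ± 416 and mt-Nd4 at 2125 ± 768 CPM per kilobase, which placed mt-Co1 above mt-Cytb (3223 ± 575). With windows of 100 bases the means were 3446 ± 304 for mt-Co1 and 3377 ± 602 for mt-Cytb (SD, n = 4). There mt-Cytb was the higher of the pair in libraries 2 and 4. The places of mt-Co1 and mt-Nd4 in the order therefore depend on whether reads from their shared bases were counted. The sources used here do not give this. The place of mt-Co1 against mt-Cytb also depends on the window length.

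The 6 mRNA genes mt-Co2, mt-Atp8, mt-Atp6, mt-Co3, mt-Nd3 and mt-Nd4l had 0 counts in every library. The highest floor of a library was 0.130 CPM, which bounds the RNA of a gene only if its reads could be counted. These 6 genes encode subunits 2 and 3 of complex IV, both mitochondrially encoded subunits of complex V, and a pair of complex I subunits. Together with 5 tRNA genes they fill the stretch from mt-Ts1 to mt-Nd4l (chrM:6870-10173), where 11 neighbouring members had 3 counts in all. Those 3 counts were on mt-Tr, the arginine tRNA, and the other 10 members had none. On either side of this stretch, mt-Co1 and mt-Nd4 were counted at least 12179 times in every library.

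Copies of 5 of these 6 mRNA genes are annotated on chromosome 1. There, 7 neighbouring genes annotated as unprocessed pseudogenes lie on the minus strand of GRCm38 at chr1:24611535-24616197. Their matching bases lie within chrM:6390-11042, an interval of 4653 bases from the last 483 bases of mt-Co1 through the first 876 bases of mt-Nd4. These 7 were named after their values were seen. Gm29216 matched mt-Co1, Gm28661 mt-Co2, Gm10925 mt-Atp6, Gm28437 mt-Co3, Gm28438 mt-Nd3, Gm10222 mt-Nd4l and Gm28439 mt-Nd4. Over 4137 aligned bases they held 1 mismatch, A1066T counted from base 1 of mt-Co1, and their identity was 99.79% to 100%. The distances between them equalled those between the matching bases of the mitochondrial chromosome in 5 of 6 intervals, and the other was 74 bases against 73. The bases between them were compared by length alone.

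The copies on chromosome 1 were also almost without counts. Together the 7 had 13 counts over the 4 libraries, at most 3 for any of them. Gm28661 had 2, 0, 0 and 1 counts in libraries 1 to 4, so both mt-Co2 and its identical copy were at or near 0. The 8 copies elsewhere, 88.51% to 97.61% identical to a member, had 1 to 233 counts over the 4 libraries. Gm13341, 95.91% identical to mt-Co2, had 25, 31, 26 and 31 counts. Gm13340, 97.61% identical to mt-Co1, had 47, 61, 49 and 76. The least similar, Gm20594 (88.51% to mt-Rnr2), had 1 count over the 4 libraries, and is named after its value was seen. In all, 15 genes off the mitochondrial chromosome shared a 50-base window with 10 members. After Gm13340 and Gm13341, the highest counts over the 4 libraries were 35 for Gm4076 and 28 for Gm11407, both like mt-Nd5, then 10 for Gm13339, like mt-Nd2, and 10 for Gm11512, like mt-Co1.

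Of their 50-base windows, mt-Co2 shared 100%, mt-Co3 99.86%, mt-Atp6 99.53%, mt-Nd4l 98.79% and mt-Nd3 97.99% with another gene. The neighbours with counts shared fewer: 827 of the 1329 windows of mt-Nd4 (62.23%) and 765 of the 1496 windows of mt-Co1 (51.14%). The exception is mt-Atp8, which shared none of its 155 windows with an annotated transcript and still had 0 counts. Its last 43 bases are also the first of mt-Atp6, which Gm10925 matched from base 1. A match of that length is too short for a 50-base window to register. On chromosome 1 an interval of 233 bases between Gm28661 and Gm10925 has the same length as the one on the mitochondrial chromosome that holds mt-Tk and most of mt-Atp8. No gene is annotated in it, and the genome sequence was not used here. The 5 tRNA genes of the stretch share no window with an annotated transcript. How reads that match several places were treated is not given in the sources used here, so a count of 0 for these members is a statement about the table and not about the RNA. The part of the copies in these zeros was not tested.

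The tRNA genes were counted little. Of the 22, 5 had 10 counts or more in every library. By mean CPM they were mt-Ti (isoleucine) at 2.90 ± 1.05, mt-Tl1 (leucine) at 2.69 ± 0.392, mt-Tw (tryptophan) at 2.31 ± 0.814, mt-Tm (methionine) at 0.959 ± 0.397 and mt-Tt (threonine) at 0.817 ± 0.289 (SD, n = 4). Counts of mt-Ti were 106, 56, 45 and 71 in libraries 1 to 4, with library 1 highest. Counts of mt-Tw were 71, 67, 53 and 29, with library 4 lowest.

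The remaining 17 tRNA genes had at most 5 counts in any library. Of these, mt-Tf, mt-Tv, mt-Ty, mt-Ts1, mt-Td, mt-Tk, mt-Tg, mt-Th and mt-Ts2 had 0 counts in every library. The 14 tRNA genes on the plus strand of the reference had 927 counts in all, and the 8 on the minus strand had 25. The 5 genes with the highest means are all on the plus strand and held nearly all of its counts. On the plus strand 7 of 14 genes were at 0 in every library, and on the minus strand 2 of 8. The pair mt-Ti, on the plus strand, and mt-Tq (glutamine), on the minus strand, is shown because these neighbours differ in counts (chrM:3706-3774 and chrM:3772-3842). Their 3′ ends overlap by 3 bases, in capitals, and both are written 5′ to 3′ on their own strand.
mt-Ti: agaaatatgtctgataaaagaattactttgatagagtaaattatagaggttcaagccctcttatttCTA
mt-Tq: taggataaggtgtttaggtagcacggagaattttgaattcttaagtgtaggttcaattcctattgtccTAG
Against the counts of mt-Ti above, mt-Tq had 3, 0, 0 and 1. On its own strand mt-Ti, from base 3706, also overlaps the end of mt-Nd1 at base 3707. Likewise mt-Tw, from base 4950, overlaps the end of mt-Nd2 at base 4951. The part of reads from these neighbours in the tRNA counts was not tested. The library kit marks strand, but whether counting used the strand is not given in the sources used here. Without it, reads of overlapping genes on opposite strands cannot be told apart.

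Whether a gene's libraries differed by more than the genes of its level usually do was tested with edgeR's negative binomial goodness of fit over 14112 genes, with Benjamini-Hochberg adjustment and a threshold of 0.05. Of the members, 14 had enough counts to be tested, namely 7 mRNA, 2 rRNA and 5 tRNA genes. Of these, 1 passed, against 3.28% of all genes tested (463 of 14112). The member that passed was mt-Nd4, at an adjusted p of 0.0277 by edgeR's goodness of fit. The next was mt-Nd5, at 0.0229 before and 0.314 after that adjustment. The median residual deviance was 3.00 over the 14 members and 1.13 over all genes tested.

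The call of mt-Nd4 depended on the test. It passed with DESeq2's dispersion trend (adjusted p = 0.0219, where 4.37% of genes passed), with total counts (0.0192, 3.31% of genes), with DESeq2 size factors (0.025, 3.27%) and with TMM factors from the filtered genes (0.0464, 3.07%). It did not pass edgeR's quasi-likelihood variance test (adjusted p = 0.889, where 0% of genes passed and 658 of 14112 had an unadjusted p under 0.05). Without a filter on low counts its edgeR adjusted p was 0.0564 (1.5% of genes passed). Without library 1 it was 1 (2.98% of genes), without library 2 0.0737 (1.94%) and without library 4 0.0854 (1.82%), while without library 3 it was 0.0206 (0.716%).

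Set against the mean of the other 3 libraries, library 1 had 0.397 times the CPM of mt-Nd4. Of the 14112 genes tested, 81 were as low or lower in library 1. The ratio was 0.516 for mt-Nd5, 0.636 for mt-Nd2 and 0.703 for mt-Cytb. It was 0.919 for mt-Nd1 and 0.920 for mt-Co1, near the median of 1.01 over all genes tested. It was 1.44 for mt-Rnr1, 1.602 for mt-Rnr2 and 1.44 for mt-Nd6. Library 1 was therefore not lower for all members.

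Ratios between members within a library do not depend on the library total. Reads on mt-Rnr2 were 3.04 times those on mt-Nd4 in library 1, and 0.771, 0.776 and 0.715 times in libraries 2 to 4. Reads on mt-Nd4 were 0.276 times those on mt-Nd1 in library 1, and 0.623, 0.643 and 0.648 times in the others. The ratio of mt-Nd1 to mt-Co1 varied little, at 0.559, 0.620, 0.523 and 0.543. Against mt-Nd1, reads on mt-Nd5 were 0.553 times in library 1 and 0.996, 0.907 and 1.043 times in the others, and reads on mt-Nd2 were 0.544 times and 0.811, 0.731 and 0.812 times. Relative to mt-Nd1, all 3 of these complex I genes were thus lowest in library 1.

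**Figure D3:**
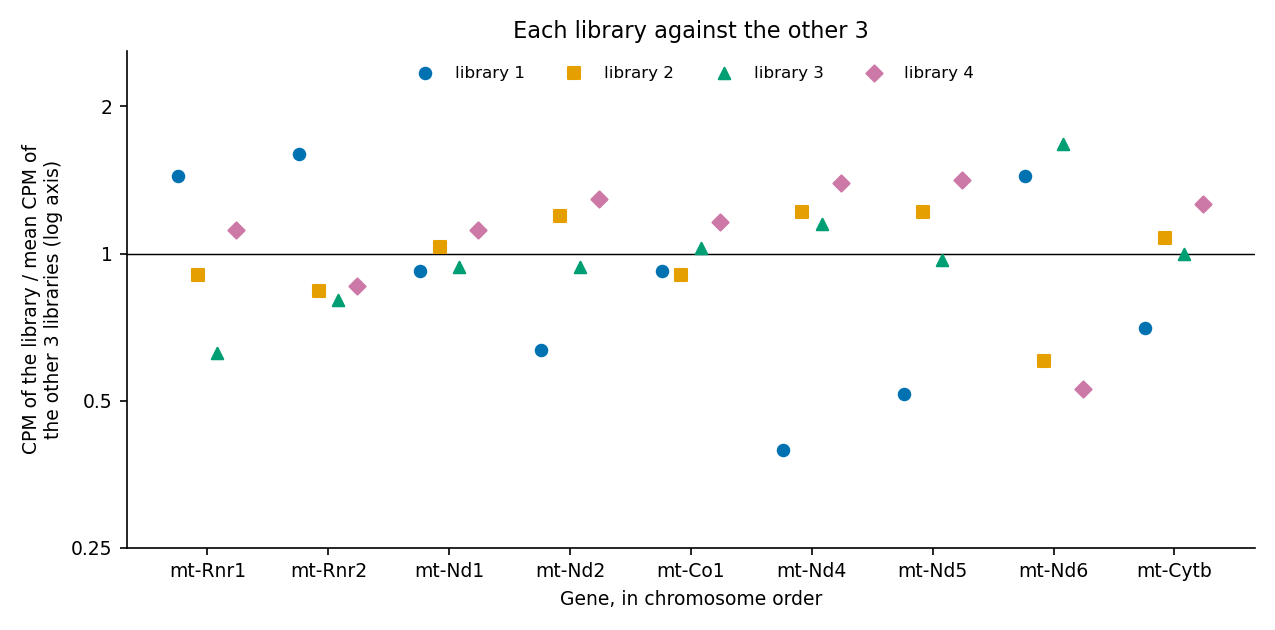
CPM of each library divided by the mean CPM of the other 3 (log axis), for the 9 mRNA and rRNA genes with counts, in chromosome order. Library 1 falls to 0.397 for mt-Nd4 and rises to 1.602 for mt-Rnr2, and libraries 1 and 3 are above 1 for mt-Nd6 while libraries 2 and 4 are below.

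Of the 9 mRNA and rRNA genes with counts, 5 were lowest in library 1, against 30.7% of all other genes tested, and 6 were highest in library 4, against 27.8%. Several marker lists were mostly highest in library 1, where 35.4% of all other genes tested were highest. Border macrophage markers (8 of 8 detected, none at 0) were highest there in all 8 cases, summing to 1622 CPM against 1018 to 1159 in the other libraries, with Stab1, a scavenger receptor, at 951, 838, 833 and 744 CPM in libraries 1 to 4. Erythroid markers (5 of 5 detected, none at 0) were highest there in all 5 cases, summing to 366 CPM against 31.3 to 175, with Hbb-bs, a beta globin, at 242, 108, 19.4 and 41.2 CPM. Oligodendrocyte markers (7 of 7 detected, none at 0) were highest there in 6 of 7 cases, summing to 871 CPM against 376 to 620, with Mbp, a myelin protein, at 383, 208.5, 80.9 and 243 CPM. The exception was Cnp, highest in library 3 at 96.5 CPM against 83.8 in library 1. Other lists were more mixed. Endothelial markers (8 of 8 detected, led by Flt1) were highest in library 1 in 4 of 8 cases. Pericyte and smooth muscle markers (6 of 7 detected, led by Rgs5) were highest there in 3 of 7. Choroid plexus and ependymal markers were highest in library 4 and lowest in library 3 for 9 of 9 genes. Also lowest in library 3 were 5 of 5 erythroid, 7 of 8 endothelial and 7 of 7 pericyte and smooth muscle markers. Of all other genes tested, 36.05% were lowest there. Border macrophage markers were lowest there in 2 of 8 cases and oligodendrocyte markers in 2 of 7.

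The ratios of library 1 also differed by exonic length. The median log2 ratio of library 1 to the mean of the others was 0.32 for genes of up to 1000 exonic bases, 0.33 up to 2000, 0.12 up to 4000 and -0.10 above that. The lengths of mt-Nd4 (1378 bases) and mt-Rnr2 (1582 bases) fall in the same length class, and their log2 ratios were -1.33 and 0.68. The part of cell makeup or transcript length in the spread of mt-Nd4 was not tested.

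Nuclear genes of the same complexes were mostly highest in library 1. Of 79 listed nuclear subunits of complexes I to V, 78 were detected and all 79 had counts, and 66 of the 79 were highest in library 1, against 35.4% of the tested genes outside the mitochondrial chromosome. Their median ratio of library 1 to the other libraries was 1.495. The 35.4% covers genes of all lengths, and the ratios of library 1 by exonic length are given above. The part of length in the levels of these subunits was not tested. Of the 79, all tested, 1 passed edgeR's goodness of fit, against 3.28% of all genes. It was Atp5e, the epsilon subunit of ATP synthase, at 160, 59.8, 72.8 and 71.8 CPM (adjusted p = 0.0176 by edgeR's goodness of fit and 0.889 by its quasi-likelihood test). The list of subunits was drawn up with earlier results of these data known.

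Within complex I, the 5 mitochondrially encoded subunits with counts had a median of 549, 1079, 914 and 1196 CPM per kilobase in libraries 1 to 4. The 37 nuclear subunits had a median of 31.8, 18.8, 18.1 and 20.9. For nuclear genes, here and below, exonic length joins the exons of all annotated transcripts, such as 5628 bases for Ndufb2. The gap on the log2 scale was 4.11, 5.84, 5.66 and 5.84, a mean of 5.36 ± 0.84 (SD, n = 4), or 41.1-fold. Without library 1 it was 5.78 ± 0.11 (SD, n = 3). Of the 5, all but mt-Nd6 lay above every nuclear subunit. A longer joined length lowers a nuclear level per kilobase. The gaps of all complexes, and the order of nuclear genes per kilobase, therefore depend on this choice of length. Windows shared with other genes were looked up for the members only. Reads that nuclear subunits may share with copies of their own were thus not assessed. The highest nuclear subunits per kilobase were Ndufc2 at 92.9 ± 37.2, Ndufa2 at 89.7 ± 42.8 and Ndufa1 at 73.3 ± 9.25 (SD, n = 4), all accessory subunits, and the lowest was Ndufb2 at 2.28 ± 0.516.

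In complex III, mt-Cytb stood 6.47 ± 0.57 (SD, n = 4) above the median of 9 nuclear subunits on the log2 scale of CPM per kilobase, or 88.5-fold. Its gap was 5.63 in library 1 and 6.63, 6.87 and 6.74 in the others. In library 1 mt-Cytb was lowest, and the nuclear median was highest, at 47.3 CPM per kilobase against 32.95, 26.3 and 34.1. The highest nuclear subunits were Uqcrh at 85.7 ± 30.9, Uqcr10 at 64.9 ± 20.0 and Uqcrc2 at 46.8 ± 4.65 CPM per kilobase, and the lowest was Uqcrb at 23.5 ± 11.6. In complex IV, mt-Co1 stood 5.61 ± 0.45 (SD, n = 4) above the median of 11 nuclear subunits, or 49.0-fold. Its gap was lowest in library 1, at 5.01 against 5.66, 6.09 and 5.71. The nuclear median was highest there, at 65.2 CPM per kilobase against 40.8, 33.5 and 47.7. The level of mt-Co1 itself was 2095, 2062, 2274 and 2491 in libraries 1 to 4, and so not lowest in library 1. With the bases shared with other genes left out of its length, that mean gap was 6.69. Cox4i1 at 154 ± 22.8, Cox6b1 at 131 ± 37.6 and Cox8a at 113 ± 12.2 CPM per kilobase led the nuclear subunits, and Cox7c was lowest at 7.37 ± 1.79.

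For complex V no gap could be computed, since both encoded subunits, mt-Atp6 and mt-Atp8, were at 0. Its nuclear subunits were led by Atp5a1 at 127 ± 13.1 and Atp5b at 106 ± 11.6 CPM per kilobase, the catalytic core, and by Atp5c1 at 60.7 ± 8.89. The lowest detected was Atp5l at 1.21 ± 0.182, from a mean of 7.79 CPM over a joined exonic length of 6443 bases. Atp5g2 alone was not detected. For Atp5o, whose symbol stands on 2 identifiers, the lower-numbered one was used, at 15.4 ± 4.88, and the other had no counts (this choice was made after both were seen). Complex II has no mitochondrially encoded subunit. Its 4 nuclear subunits were all detected, with Sdha at 57.7 ± 1.13, Sdhd at 57.0 ± 12.3, Sdhb at 30.7 ± 9.42 and Sdhc at 23.9 ± 3.11 CPM per kilobase.

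**Figure D4:**
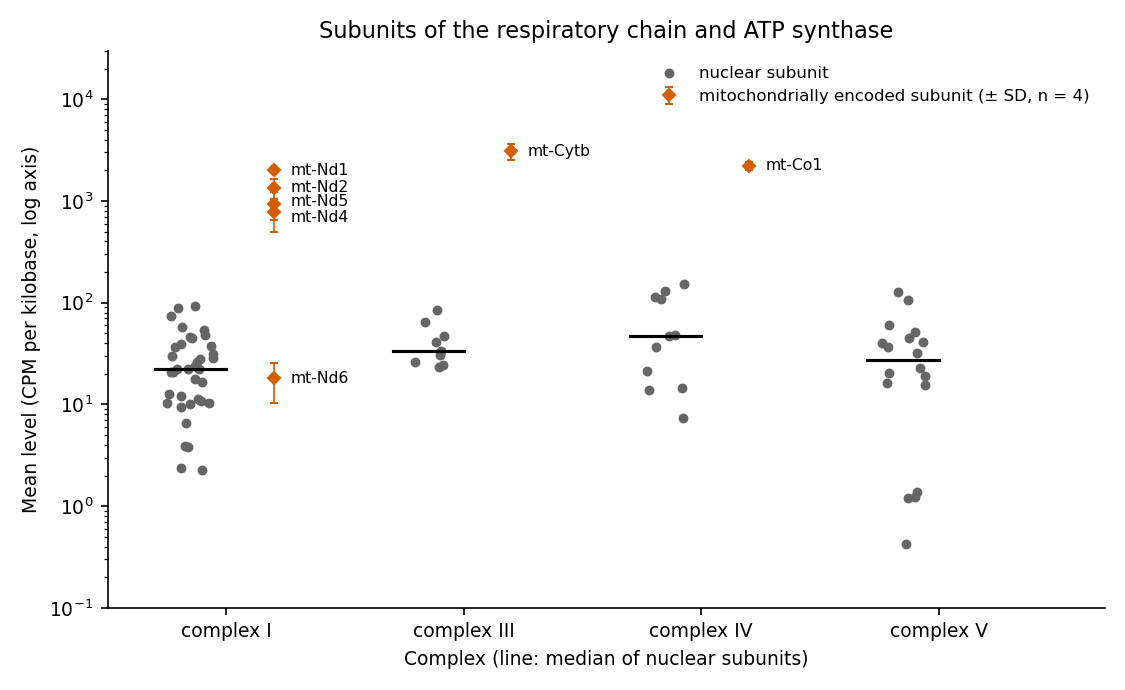
Mean level per kilobase of exon (log axis) of nuclear subunits (grey, 1 point per gene, line at the median of all listed) and mitochondrially encoded subunits with counts (orange, ± SD over 4 libraries) of complexes I, III, IV and V. Genes at 0 counts are not drawn, and mt-Nd6 is the only encoded subunit within the range of the nuclear ones.

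The mitochondrial chromosome is copied, transcribed and translated by proteins of nuclear genes. Of 16 genes of transcription and the nucleoid, 14 were detected and 0 of 16 passed edgeR's goodness of fit (0 at an unadjusted p under 0.05). Polg, the polymerase that copies the chromosome, was highest at 12.0 ± 0.935 CPM per kilobase, followed by Mgme1 at 9.16 ± 0.380 and Mterf3 at 7.94 ± 0.755, and Mterf1a was the lowest detected at 0.683 ± 0.152. The median of log2(CPM + 0.5) over this list was 3.73, 3.61, 3.69 and 3.62 in libraries 1 to 4.

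All 24 genes of mitochondrial RNA processing and decay were detected, and 0 passed (0 unadjusted). Grsf1, an RNA-binding protein of mitochondrial RNA granules, led at 27.4 ± 0.753 CPM per kilobase, followed by Trit1, a tRNA-modifying enzyme, at 23.9 ± 3.75 and Hsd17b10, a subunit of the nuclease that cuts the 5′ ends of mitochondrial tRNAs, at 20.6 ± 3.78. Fastkd5 was lowest at 1.70 ± 0.434. Their median was 4.75, 4.45, 4.65 and 4.64. Of 15 listed genes of mitochondrial translation, 14 matched the table, all 14 were detected and 0 passed (0 unadjusted). With edgeR's quasi-likelihood variance and with DESeq2's dispersion trend, 0 genes of these 3 lists passed and 0 had an unadjusted p under 0.05. Oxa1l, which inserts proteins into the inner membrane, led at 15.2 ± 0.695 CPM per kilobase, then Mrpl12 at 14.5 ± 4.73 and Mtif2 at 9.50 ± 0.283, and Mrps35 was lowest at 1.99 ± 0.145. In none of the 3 lists did the median in library 1 fall below that of the other libraries.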

How the data were processed

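RNA-seq was done on 4 libraries of 1 group. The authors deposited raw counts per Ensembl gene. Per the submitters' processing notes the build is GRCm38, and the tools named are featureCounts (1.6.5), STAR (2.7.2b) and bcl2fastq (2.20.0.422). The handling of strand and of reads with several matches, or the annotation release, is not given in the sources used here.

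Of 55471 identifiers, 55230 matched GENCODE M21, and the other 241 stayed in the totals. CPM are counts per 1000000 total counts, and per-kilobase values divide CPM by exonic length. This length joins the exons of all annotated transcripts of a gene. Spread between libraries was tested with an intercept-only negative binomial fit in edgeR 4.0.16 (R 4.3.3) with trended dispersion and TMM factors (1.00, 1.01, 0.963 and 1.03, from all genes). The residual deviance was set against a chi-square distribution over the 14112 genes kept by filterByExpr, with Benjamini-Hochberg adjustment at 0.05. edgeR's quasi-likelihood variance against its prior and DESeq2 1.42.0's dispersion trend were alternatives. The test was checked on counts simulated at its own trended dispersion, which cannot show how it behaves where genes depart from that trend. Windows of 50, 75 and 100 bases were searched in GENCODE M21 transcripts, and identity came from alignments with Biopython 1.88. Lists are described by the median of log2(CPM + 0.5).

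Members and lists were chosen with earlier results of these data known. All 13 mRNA and both rRNA genes are named with every value. Also named are the 5 highest tRNA genes and those at 0, the 6 most counted genes sharing a window, the 3 highest and the lowest detected of each list of nuclear genes, any gene of these past the threshold, and leading cell type markers where a list is described. The leading marker of one list is not reported here. Labels of replicates 1 to 4 name the libraries.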

Additional observations from a re-analysis of the deposited data

Results flagged for a closer look

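Of 24 values checked for a library far from the other 3, 3 had a gap to the nearest library above Dixon's critical value at 4 samples, which chance gives in about 1 of 20 groups. The share of mitochondrial counts on mRNA genes was lowest in library 1, at 84.6% against 92.0% to 92.5%, with a gap of 0.938 of the range. The level of mt-Rnr2 was highest in library 1, at 1514 CPM against 917 to 969, with a gap of 0.914. The median log2(CPM + 0.5) of the nuclear subunits of complex V was highest in library 1, at 6.13 against 5.53 to 5.60, with a gap of 0.883. The 3 values share library 1 and are not independent of each other. The first 2 share counts of mt-Rnr2. The level of mt-Nd4 in library 1, at 499 CPM, did not meet this rule.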

How the results depend on the processing

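The number of members past the threshold for spread was 1, and 0 without a filter on low counts and with edgeR's quasi-likelihood variance. Leaving out 1 library at a time it was 0 to 1. Over all genes tested it was 463, and 0 with edgeR's quasi-likelihood variance (658 at an unadjusted p under 0.05), and 106 to 425 leaving out 1 library at a time. The cause was not tested. It was 106 without library 3, 258 without library 4 and 276 without library 2. The complex IV gap of 5.61 was 6.69 on the log2 scale when only windows of 50 bases not found in another gene made up the length, since these windows are fewer. The other 49 values of these comparisons stayed within their spread, or within 1.5 times for counts. For levels per kilobase, the count was of neighbour pairs that kept their order in every library. Each setting was sorted by its own means, so this count does not show a change of order. With unshared windows of 50 bases as length, mt-Co1 (4714 CPM per kilobase) passed mt-Cytb (3223). With windows of 100 bases these means were close, at 3446 and 3377, and mt-Cytb was higher in libraries 2 and 4. With windows of 50 bases mt-Nd4 (2125) passed mt-Nd2 (1550) and mt-Nd5 (1039) and was level with mt-Nd1 (2124). TMM factors from the filtered genes (1.01, 1.02, 0.927 and 1.05) were tried first and gave 433 genes and the same member. TMM from all genes, as in an earlier analysis of these data, was made the main setting after both counts had been seen. The planned length, windows found once in the genome, was replaced by windows found in no annotated transcript of another gene, because no genome sequence was used here. No paired analysis was possible because there is only 1 group. At these depths a level below 3 counts, about 0.123 to 0.130 CPM, cannot be told from 0.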

Other observations

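Among the 5 tested tRNA genes, 3 were low in library 4. In that library, where 6 of the 9 mRNA and rRNA genes with counts were highest, mt-Tw was at 0.441 times the mean of the other libraries, mt-Tt at 0.478 times and mt-Tm at 0.570 times, while mt-Tl1 was at 0.885 times and mt-Ti at 1.002 times. Of 14112 genes tested, 36 were as low as mt-Tw in library 4, 53 as low as mt-Tt and 127 as low as mt-Tm. These values rest on 29, 11 and 15 counts. In library 2, mt-Tm was at 1.97 times the mean of the others, on 35 counts, and 41 genes were as high. In library 1, mt-Tl1 was at 0.832 times and mt-Ti at 1.80 times. A difference from the mRNA genes was not tested. None of the 5 passed edgeR's goodness of fit (adjusted p of 1 for each).

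The minus-strand gene mt-Nd6 was at 0.603 and 0.528 times the mean of the others in libraries 2 and 4, and 1.44 and 1.68 times in libraries 1 and 3. Its edgeR goodness of fit gave an adjusted p of 0.922, against 0.714 with DESeq2's dispersion trend and 0.890 with the quasi-likelihood variance.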
